A study of Mus musculus with 17 samples.

Results

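Macrophages of injured muscle were sorted into Ly6C low and Ly6C high subsets, and how far the subsets differed on day 4 was compared with how far they differed on day 2. For each gene the log2 level in Ly6C high cells was subtracted from that in Ly6C low cells on each day, and the day 2 result was subtracted from the day 4 result. The value, called the change in subset difference, was positive where Ly6C low cells gained on Ly6C high cells and negative where they lost ground. It used 12 of the 17 samples of the series and 11729 of the 38087 genes in the table. These genes reached 5 on the log2 scale in 2 or more of the 4 groups.

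All cells came from the tibialis anterior, a shin muscle, of DBA/2J mice, all male and 3 months old. Cardiotoxin, a membrane-damaging component of cobra venom, had been used to destroy the fibres, which then regenerate. The 4 groups were Ly6C high macrophages on day 2, Ly6C low macrophages on day 2, Ly6C high macrophages on day 4 and Ly6C low macrophages on day 4 after injury, with 3 samples each. Injury, strain and sex were common to all of them, and the groups hold no uninjured muscle. RNA was measured by sequencing, and the deposited table gives each group a single value, on a scale of log2 normalised reads averaged by the authors. No gene therefore has an error or a test below, and whether any difference exceeds the spread between mice is unknown. A gene was counted as 2-fold apart when its value was at least 1 or at most -1 on the log2 scale.

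Ly6C is a surface protein of the Ly6 family that marks inflammatory monocytes. These cells enter damaged muscle from the blood, clear debris, and give rise within the tissue to Ly6C low macrophages that accompany the growth of new fibres. Macrophages can also divide in the tissue. Genes for DNA synthesis are switched on in late G1 and S phase by E2F factors. Genes for mitosis are expressed later, through a promoter element called the cell cycle genes homology region (CHR) and through CCAAT boxes. The series title places the samples in a study of PPARγ, a nuclear receptor for fatty acids encoded by Pparg.

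The values of the sort markers and of macrophage identity genes came first. Ly6c2, which encodes the Ly6C protein of monocytes, had log2 levels of 9.87 in Ly6C high and 6.16 in Ly6C low cells on day 2, and of 10.56 and 4.64 on day 4. The subset difference was thus -3.71 on day 2 and -5.92 on day 4, a change of -2.21. Ly6c1, the neighbouring gene, which endothelial cells also express, had subset differences of -4.03 and -5.77. Csf1r, the receptor for the growth factor of macrophages, stood at 13.52 in Ly6C high and 13.31 in Ly6C low cells on day 2, and at 14.06 and 14.71 on day 4. Its change was 0.86. Emr1, which encodes the macrophage protein F4/80, stood between 12.51 and 13.69 in the 4 groups, with a change of 0.27. Itgam, which encodes CD11b, stood between 12.81 and 14.14, with a change of 0.72. These 3 identity genes were thus at high levels in the 4 groups, and their subset difference moved toward Ly6C low cells by less than 2-fold. Under quantile normalization the change was 0.43 for Csf1r and 0.10 for Emr1. Cd68, also planned as an identity gene, is not given here.

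Most genes differed little. The change in subset difference had a median of 0.00 over the 11729 genes, and 90% of the genes lay between -0.80 and 0.55. At least 2-fold apart were 472 genes (4.02%). Of these, 90 (0.767%) had moved toward Ly6C low cells and 382 (3.26%) toward Ly6C high cells, so 19.1% of the 472 were on the Ly6C low side. Counts of list members at least 2-fold apart are to be read beside the shares of 0.767% and 3.26%. Quantile normalization of the 4 columns gave 174 and 321 genes, or 35.2% on the Ly6C low side. The side with more genes was the same, and the split depended on the scaling. The values ran on without a gap at the 2-fold line. Ms4a4c lay just inside it at 1.005 and AL772299.1 just outside at 0.999, and on the other side S1pr3 lay at -1.003 and Spnb2 at -0.998. Of the 472 genes, 89 lay within 0.1 of the line. At the expression filter, the second highest of the 4 values was 5.0001 for Dtnb, which was kept, and 4.9999 for F3, which was not.

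**Figure D1:**
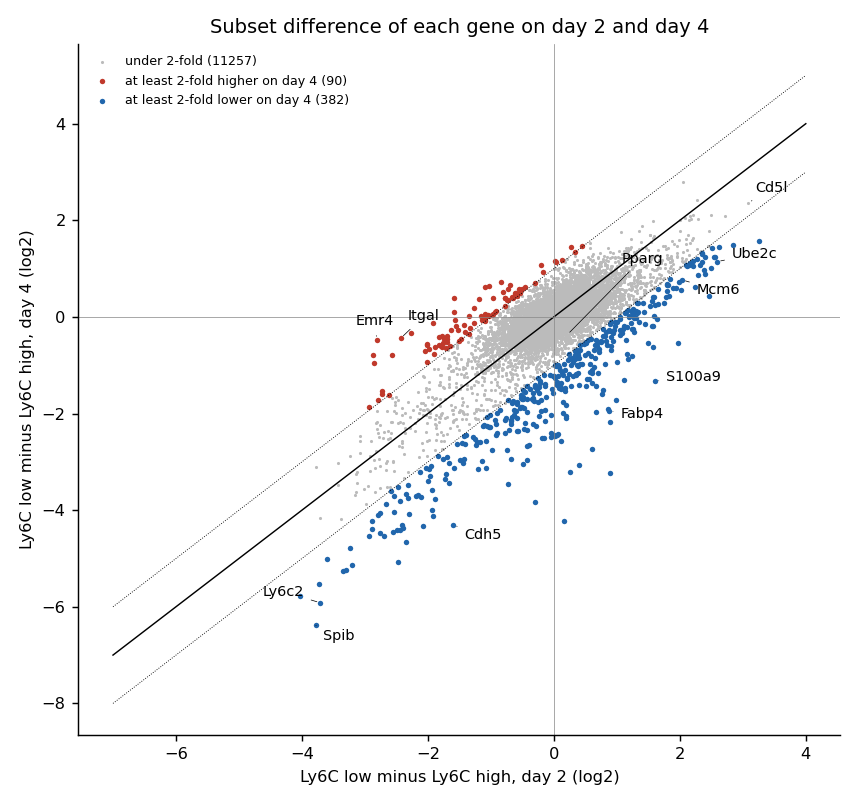
Each point is 1 of the 11729 genes, with the difference Ly6C low minus Ly6C high on day 2 (x axis, log2) and on day 4 (y axis, log2). The solid line marks equal differences and the dotted lines 2-fold departures. The 90 genes above the upper dotted line lie mostly left of 0 on the x axis, and the 382 genes below the lower one spread over the whole range.

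The 2 sides differed in where the genes had stood on day 2. Of the 90 genes that moved toward Ly6C low cells, 52 were at least 2-fold lower in Ly6C low cells on day 2 and within 2-fold on day 4. A further 26 were within 2-fold on both days, 7 became at least 2-fold higher in Ly6C low cells, and 5 were at least 2-fold lower on both days. By these classes, 52 of the 90 lost a 2-fold deficit and 7 gained a 2-fold excess. All counts in this paragraph describe genes selected on the same 2 subset differences and carry no weight beyond that. Of the 382 genes that moved toward Ly6C high cells, 152 were within 2-fold on day 2 and at least 2-fold lower in Ly6C low cells on day 4. Another 80 were 2-fold lower on both days, 70 were 2-fold higher on day 2 and within 2-fold on day 4, 57 were within 2-fold on both, and 21 were 2-fold higher on both.

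Only 2 of the 11729 genes were at least 2-fold apart in opposite directions on the 2 days. S100a9, a calcium-binding protein of neutrophils and monocytes, went from a subset difference of 1.61 to -1.32. A4galt, a glycolipid galactosyltransferase, went from 1.11 to -1.31. A4galt lay outside the rule for naming genes and is named because the count was so small.

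The subset difference on day 2 was at least 2-fold in 965 genes (8.23%) and that on day 4 in 855 (7.29%). Of the 437 genes (3.73%) higher in Ly6C low cells on day 2, 168 (38.4%) were still at least 2-fold higher on day 4. Of the 528 genes (4.5%) lower in Ly6C low cells on day 2, 357 (67.6%) were still at least 2-fold lower. Seen from day 4, the 168 genes were 66.7% of the 252 higher genes (2.15% of all) and the 357 were 59.2% of the 603 lower genes (5.14% of all). Genes that marked Ly6C low cells on day 2 thus passed the 2-fold line on day 4 in a smaller share than genes that marked Ly6C high cells. The difference between these shares has no test.

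The change over time in each subset shows which group the values came from. Among the 90 genes on the Ly6C low side, the median difference of day 4 minus day 2 was 1.35 in Ly6C low cells and 0.06 in Ly6C high cells. In 26 of them Ly6C low cells alone were at least 2-fold higher on day 4, in 29 both subsets were, in 12 Ly6C high cells alone were 2-fold lower, and in 23 neither subset was 2-fold apart. Among the 382 genes on the Ly6C high side, the medians were 0.32 in Ly6C low cells and 1.86 in Ly6C high cells. Ly6C high cells alone were at least 2-fold higher on day 4 in 188 (49.2%), and both subsets were in 96 (25.1%). Ly6C low cells alone were at least 2-fold lower in 33. Over all genes, 1228 (10.5%) were 2-fold higher on day 4 in Ly6C high cells and 1020 (8.7%) in Ly6C low cells. At least 2-fold lower on day 4 were 1.93% of genes in Ly6C high and 2.14% in Ly6C low cells. These medians describe genes selected on the same 4 values and carry no weight beyond that.

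Emr4, an adhesion receptor related to F4/80 carried by monocytes and other myeloid cells, had the highest change of all the genes compared. The gene (ENSMUSG00000032915) lies at chr17:55749984-55853662 on the plus strand of GRCm38, as GENCODE M21 gives it. Its log2 level was 7.04 in Ly6C high and 4.23 in Ly6C low cells on day 2, and 9.08 and 8.60 on day 4. Ly6C low cells on day 2 were the low group, and the other 3 lay at least 2.81 above them. The subset difference went from -2.81 to -0.47, a change of 2.34. On the linear scale Emr4 in Ly6C low cells was still below its level in Ly6C high cells on day 4.

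Itgal encodes the alpha chain of LFA-1, the integrin with which leukocytes bind ICAM proteins on vessel walls and on other cells. The gene (ENSMUSG00000030830) lies at chr7:127296260-127335138 on the plus strand. It stood at 10.06 in Ly6C high and 7.63 in Ly6C low cells on day 2, and at 10.54 and 10.10 on day 4. Here too Ly6C low cells on day 2 were alone in being low, and the change was 1.99. Entpd1 encodes CD39, which breaks down extracellular ATP. It stood at 11.12 in Ly6C high and 9.84 in Ly6C low cells on day 2, and at 11.26 and 11.45 on day 4, a change of 1.46. Cd4, the coreceptor of helper T cells that some macrophages also express, stood at 5.17 and 3.98 on day 2 and at 8.55 and 8.92 on day 4, a change of 1.57. Of 23 T and NK cell genes, 3 passed the expression filter. Without Il7r, which carried most of its sum, that list (Cd4 included) summed to 210 normalised reads in Ly6C high and 91.7 in Ly6C low cells on day 2, and to 1110 and 641 on day 4. The part of T cell RNA in the Cd4 value was not tested.

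Receptor genes of myeloid cells named on this side included copies of gene families. Sirpb1a and Gm5150, which lie near each other among signal-regulatory protein genes on chromosome 3, had changes of 1.33 and 1.37. Pilrb2, an activating immunoglobulin-like receptor, had a change of 1.36. Their near neighbours Sirpb1c, at 1.07, and Pilrb1, at 1.16, lie outside the naming rule and were added after their values were seen. These genes have near-identical copies, among which reads may be shared, so their single values are uncertain. Clec7a, which encodes the fungal sugar receptor dectin-1, stood at 12.61 in Ly6C high and 11.18 in Ly6C low cells on day 2, and at 12.65 and 12.49 on day 4, a change of 1.26. Sorl1, a sorting receptor, had 1.26, and Tifab, an adaptor of the TRAF6 pathway, had 1.31. Mmp8, a collagenase, differed from these. It was lower on day 4 in both subsets, by 2.08 in Ly6C high and 0.82 in Ly6C low cells on the log2 scale.

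Of the leukocyte integrins, 15 of 17 passed the expression filter. Itgal was the only one at least 2-fold apart, while 12 were above 0, against 50.3% of all genes. Their median was 0.38, and 0.22 under quantile normalization. Itga4, the alpha chain of VLA-4, went from a subset difference of -0.41 to 0.44, and Itgb2, the partner chain of LFA-1, from -0.46 to 0.23. The median difference of the integrins was -0.41 on day 2 and 0.19 on day 4. Itgb7 and Itga1 stayed lower in Ly6C low cells, at -1.06 and -2.37 on day 4.

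**Figure D2:**
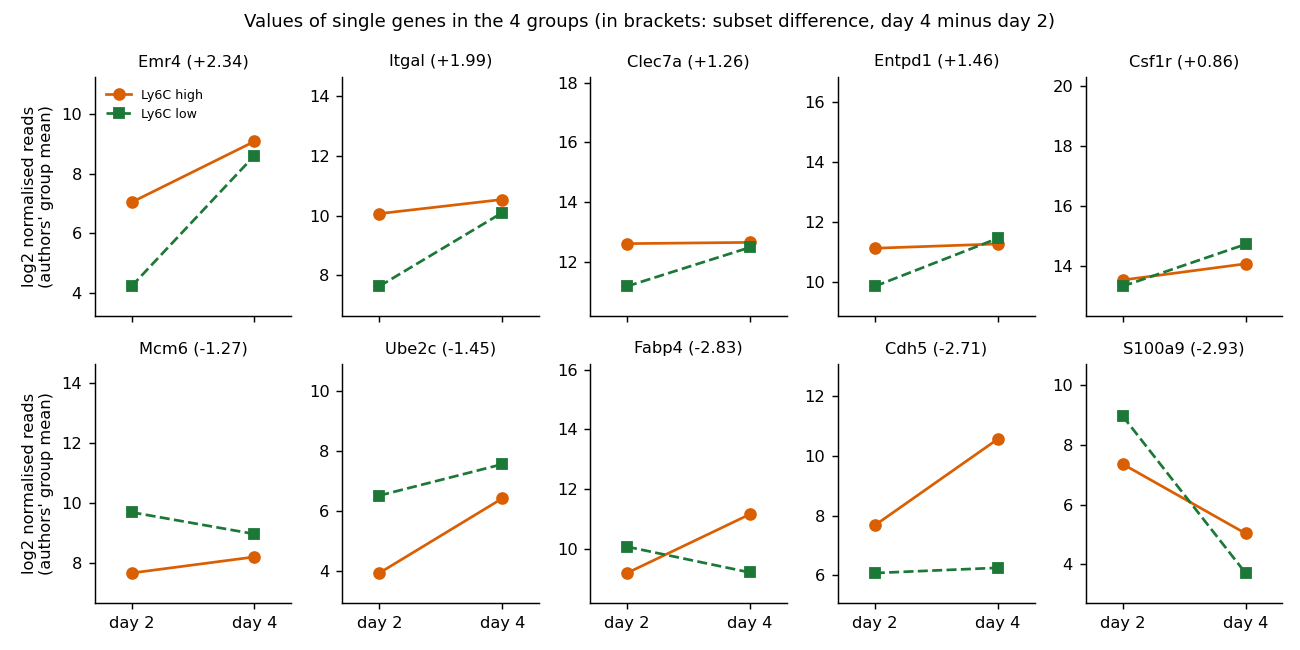
Authors' group mean (log2 normalised reads, y axis) of 10 genes on day 2 and day 4 in Ly6C high (circles, solid lines) and Ly6C low (squares, dashed lines) cells, with the change in subset difference in brackets. Every panel spans the same number of log2 units. Emr4 and Itgal are low in Ly6C low cells on day 2, and Cdh5 is high in Ly6C high cells on day 4.

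Genes of MHC class II presentation lay mostly on the same side with smaller sizes. Of 13 genes compared, 11 were above 0 and Ciita was the only one at least 2-fold apart, with a list median of 0.49. Ciita, the master activator of these genes, stood at 6.80 in Ly6C high and 5.71 in Ly6C low cells on day 2, and at 8.62 and 8.63 on day 4. Both subsets were higher on day 4, and the difference of -1.09 became 0.00. The peptide-loading genes H2-DMa and H2-DMb1 had changes of 0.75 and 0.56. The antigen-presenting chains moved less, with 0.25 for H2-Aa, 0.21 for H2-Ab1 and -0.09 for H2-Eb1. On day 2, 9 of the 13 genes were at least 2-fold lower in Ly6C low cells, and on day 4 only Cd80, at -1.25, was. Of all genes, 4.5% were so on day 2 and 5.14% on day 4.

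Patrolling monocyte genes, of which Emr4, Itgal and Fabp4 are members, lay mostly above 0 but had members at least 2-fold apart on both sides. Of 25 compared, Emr4, Itgal and Hes1 were at least 2-fold higher, and Fabp4 and Pglyrp1 were at least 2-fold lower. Above 0 were 18 of the 25, and the list median was 0.23. Ace and Treml4, 2 markers of patrolling monocytes, kept subset differences of -3.13 and -1.60 on day 2 and -3.22 and -1.61 on day 4. Nr4a1, the factor on which these monocytes depend, had a change of 0.09. Cx3cr1, the fractalkine receptor, had 0.23.

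Several other lists lay above 0 without 2-fold members or with single ones. Of 23 sterol synthesis genes, 19 were above 0 with a median of 0.33 and none 2-fold apart. Of 38 interferon response genes, 29 were above 0 with a median of 0.23. Ifit2, an antiviral RNA-binding protein, was the only one 2-fold apart, at 1.09. Of 48 lysosome genes, 38 were above 0 with a median of 0.17, which was 0.01 under quantile normalization. Of 35 macrophage transcription factors, 26 were above 0. Spic, a factor of iron-recycling macrophages, was at 1.02.

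Receptors for cytokines appeared among the 90 genes as well, and the following were added after their values were seen. Il10ra, which encodes a chain of the interleukin-10 receptor, stood at 11.10 in Ly6C high and 10.06 in Ly6C low cells on day 2, and at 11.06 and 11.10 on day 4, a change of 1.10. Csf2ra, a chain of the GM-CSF receptor, had a change of 1.05, and Il6ra, a chain of the interleukin-6 receptor, 1.02. In each of these the subset difference of day 2 was negative and that of day 4 lay between 0.05 and 0.43.

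The genes on the Ly6C high side included the machinery of DNA replication. Of 46 replication genes compared, 45 were below 0 and 10 at least 2-fold lower, with a list median of -0.73, beside 3.26% of all genes at least 2-fold lower and an overall median of 0.00. Under quantile normalization 39 of the 46 were below 0 and the median was -0.41. On day 2, 24 of the 46 were at least 2-fold higher in Ly6C low cells, and on day 4 only 3 were. Of all genes, 3.73% were so on day 2 and 2.15% on day 4. The median subset difference of the list was 1.11 on day 2 and 0.39 on day 4. The excess of replication transcripts in Ly6C low cells was thus smaller on day 4, and 44 of the 46 genes were above 0 on day 2 (47.4% of all genes) and 40 on day 4 (48.9% of all genes).

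Mcm6 encodes a subunit of the MCM helicase, the ring that opens DNA at replication forks. The gene (ENSMUSG00000026355) lies at chr1:128331590-128359664 on the minus strand. It stood at 7.66 in Ly6C high and 9.69 in Ly6C low cells on day 2, and at 8.20 and 8.96 on day 4. The subsets approached each other from both sides, and the subset difference went from 2.03 to 0.77, a change of -1.27. The other 5 subunits of the ring, given for completeness whatever their value, all lay below 0. Mcm5 had -0.95, Mcm7 -0.88, Mcm4 -0.82, Mcm3 -0.74 and Mcm2 -0.64. All 6 were lower on day 4 in Ly6C low cells, by 0.41 for Mcm7 to 0.82 for Mcm4 on the log2 scale. In Ly6C high cells the 6 ran from -0.13 for Mcm2 to 0.54 for Mcm6.

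Other replication genes followed. Pold1, the catalytic subunit of DNA polymerase delta, went from 0.94 to -0.34, a change of -1.28. Pola1, the polymerase that starts new strands, went from 1.69 to 0.71, Lig1, the ligase that joins lagging strand fragments, from 1.74 to 0.77, and Uhrf1, which keeps DNA methylation through replication, from 1.66 to 0.59. Pcna, the sliding clamp, moved little, from 0.34 to 0.08. Over the list, 38 of the 46 genes were lower on day 4 in Ly6C low cells, and 39 were higher on day 4 in Ly6C high cells. Of all genes, 51.7% were higher on day 4 in Ly6C low and 49.0% in Ly6C high cells. The medians of these changes over time were -0.39 and 0.38.

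Mitosis genes behaved otherwise over time. Of 39 compared, 33 were below 0 and 6 at least 2-fold lower, with a median of -0.70, beside 3.26% of all genes at least 2-fold lower. All 39 were higher on day 4 in Ly6C high cells, 28 of them by at least 2-fold, and 38 were higher in Ly6C low cells, 8 by at least 2-fold. The list medians were 1.38 and 0.68. Of all genes, 10.5% in Ly6C high and 8.7% in Ly6C low cells were at least 2-fold higher on day 4. The subset difference of the list remained on the Ly6C low side, with 33 genes at least 2-fold higher in Ly6C low cells on day 2 and 30 on day 4. Of all genes, 3.73% were so on day 2 and 2.15% on day 4. Under quantile normalization the list median was -0.21, and none of the 5 genes named for the list was 2-fold apart.

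Ube2c, a ubiquitin-conjugating enzyme of the anaphase-promoting complex, stood at 3.92 in Ly6C high and 6.52 in Ly6C low cells on day 2, and at 6.42 and 7.56 on day 4. The change was -1.45, and -0.89 under quantile normalization. Nusap1, a spindle protein, had -1.31 and Bub1, a kinase of the spindle checkpoint, -1.18. The corresponding values under quantile normalization were -0.70 and -0.56. Top2a, which untangles chromosomes, had -0.70. Mki67, the gene of the proliferation antigen Ki-67, was higher on day 4 by 1.36 in Ly6C high and 1.17 in Ly6C low cells, a change of -0.19 only. Replication and mitosis genes thus shared the sign of the change in subset difference. They differed in the sign of the change over time in Ly6C low cells.

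**Figure D3:**
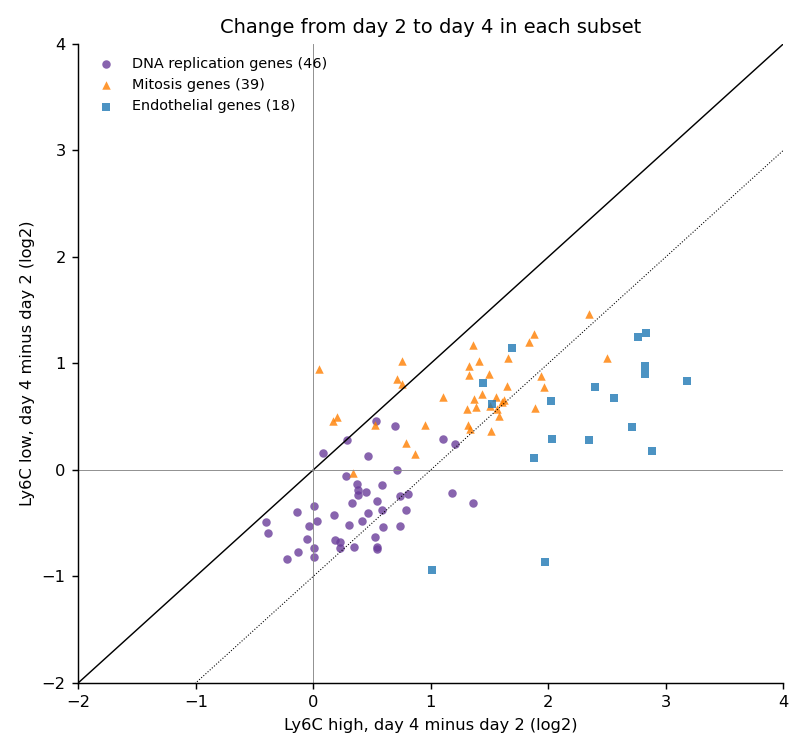
Change from day 2 to day 4 (log2) in Ly6C high (x axis) and Ly6C low (y axis) cells for 46 DNA replication, 39 mitosis and 18 endothelial genes. Points under the solid line lost ground in Ly6C low cells, and those under the dotted line did so by at least 2-fold. Replication genes lie mostly below 0 on the y axis, mitosis genes above it, and endothelial genes farthest to the right.

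The promoters of 3 of these genes are shown because they carry the elements that background knowledge ties to the S phase and mitosis genes. Each line gives the 250 bases before the RefSeq transcription start on GRCm38.p6, read along the gene. Mcm6 lies on chr1:128359706-128359955 (minus strand), Mcm5 on chr8:75109259-75109508 (plus strand) and Ube2c on chr2:164769679-164769928 (plus strand). Capitals mark matches on either strand. The E2F core was searched in the form TTGGCGC, and a further form of that core was TTCCCGC. The CHR was searched as the word TTTGAA, and the CCAAT box by the letters of its name.
Mcm6: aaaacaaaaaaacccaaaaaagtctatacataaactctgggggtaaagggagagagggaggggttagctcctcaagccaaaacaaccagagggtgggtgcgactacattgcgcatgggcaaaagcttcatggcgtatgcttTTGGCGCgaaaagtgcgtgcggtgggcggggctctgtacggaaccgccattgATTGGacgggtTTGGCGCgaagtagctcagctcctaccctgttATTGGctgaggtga
Mcm5: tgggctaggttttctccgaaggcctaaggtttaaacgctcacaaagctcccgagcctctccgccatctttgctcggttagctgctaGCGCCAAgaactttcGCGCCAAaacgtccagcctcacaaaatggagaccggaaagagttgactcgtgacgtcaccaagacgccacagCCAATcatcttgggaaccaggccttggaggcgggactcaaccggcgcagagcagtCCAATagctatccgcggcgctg
Ube2c: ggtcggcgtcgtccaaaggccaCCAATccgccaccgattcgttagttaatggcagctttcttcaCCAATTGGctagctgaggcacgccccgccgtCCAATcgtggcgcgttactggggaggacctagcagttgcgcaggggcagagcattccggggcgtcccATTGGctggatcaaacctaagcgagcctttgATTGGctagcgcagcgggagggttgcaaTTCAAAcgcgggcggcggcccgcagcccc
The Mcm6 window held 2 E2F cores, which began at -109 and -46 from the start, and 2 CCAAT boxes. The Mcm5 window also held 2 E2F cores and 2 CCAAT boxes. The Ube2c window held 1 CHR, which began at -29, and 6 CCAAT boxes, 2 of which overlap on opposite strands. The 46 windows of replication genes belong to 39 genes and are not the 46 genes compared above. Of these windows, 14 (30.4%) held an E2F core, against 5.62% of all 32851 RefSeq promoter windows of that length. A CHR word was found in 15 of 35 mitosis windows (42.9%), which belong to 33 genes, against 16.0% of all windows. CCAAT was found in 80.0% of the mitosis and 58.7% of the replication windows, against 33.8% of all. A match is a run of letters and no measure of binding.

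The lowest values under the naming rule included several vessel genes that were high in Ly6C high cells of day 4. Eltd1, an adhesion receptor of endothelial cells, stood at 5.49 in Ly6C high and 5.18 in Ly6C low cells on day 2, and at 8.61 and 4.77 on day 4, a change of -3.53. Col18a1, the collagen of vessel basement membranes from which endostatin is cut, stood at 6.54 and 7.43 on day 2 and at 10.49 and 8.32 on day 4, a change of -3.06. Cdh5, which encodes the VE-cadherin of endothelial junctions, stood at 7.67 and 6.08 on day 2 and at 10.56 and 6.25 on day 4. In Cdh5 the Ly6C low values differed by 0.17 between the days and the Ly6C high values by 2.89. Cav1, the coat protein of caveolae, had 8.76 and 8.33 on day 2 and 11.18 and 8.21 on day 4. Npr1, a natriuretic peptide receptor, was at -3.47 and Apod, a secreted lipid carrier, at -3.33.

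Of 26 endothelial genes, 18 passed the expression filter and all 18 were below 0. At least 2-fold lower were 15, beside 3.26% of all genes. The list median was -1.81, and the range over all settings was -2.14 to -1.79. Some members, such as Esam and Egfl7, were below 5 in both Ly6C low groups and passed the filter through the Ly6C high groups alone. With the filter on all 4 groups the list median was -1.88. Without Fabp4 and Ly6c1, which other lists also hold, 13 of 16 were at least 2-fold lower. The summed level of the 26 genes was 3020 normalised reads in Ly6C high and 2350 in Ly6C low cells on day 2, and 14400 and 2510 on day 4. Without Fabp4, the gene with the highest mean level, the sums were 2440 and 1270 on day 2 and 12100 and 1920 on day 4. The Ly6C high group of day 4 was thus the only one with a high sum, and no endothelial gene was at 0 in any group. In bulk samples, more cells of a type and more RNA per cell cannot be told apart. The lowest values of a column show how many genes had reads in a single library. In the Ly6C high group of day 4, 596, 281 and 92 genes fell on the lowest steps of 3 libraries. The counts were 385, 354 and 166 in Ly6C high cells of day 2. They were 332, 314 and 143 in Ly6C low cells of day 2, and 256, 192 and 120 in those of day 4. Within each group the library with the most such genes was taken first, so a falling order carries no information. Whether 1 library carried the endothelial values was not tested, since the column cannot be split.

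Fabp4 encodes a fatty acid binding protein of macrophages, fat cells and capillary endothelium, and is a classical target of PPARγ. The gene (ENSMUSG00000062515) lies at chr3:10204088-10208576 on the minus strand. It stood at 9.19 in Ly6C high and 10.07 in Ly6C low cells on day 2, and at 11.16 and 9.21 on day 4. The order of the subsets was opposite on the 2 days, with subset differences of 0.88 and -1.95 and a change of -2.83. Pparg itself stood at 7.93 and 8.14 on day 2 and at 8.81 and 8.45 on day 4, a change of -0.58. Of 24 PPAR target genes, Fabp4 and Angptl4 were at least 2-fold lower and none at least 2-fold higher, with a median of -0.08. Angptl4, a secreted inhibitor of lipoprotein lipase, was higher on day 4 by 4.20 in Ly6C high and 2.74 in Ly6C low cells. Of other targets, Cd36, a fatty acid receptor, and Plin2, a lipid droplet coat protein, moved little, with -0.20 and -0.17. Lpl, lipoprotein lipase, went from a subset difference of 1.66 to 0.88, a change of -0.78. The endothelial markers had their highest values in the same group as Fabp4, and their part in the Fabp4 value was not tested.

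**Figure D4:**
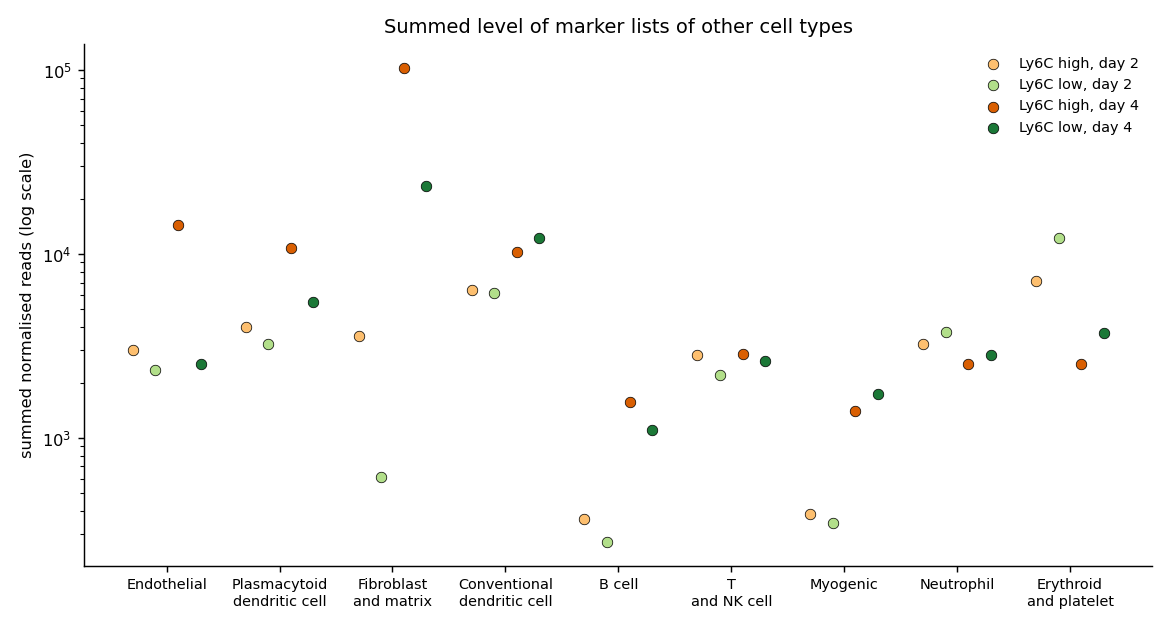
Summed normalised reads (log scale, y axis) of marker lists of other cell types in the 4 groups, each point being the sum over a list in 1 group. Endothelial genes are high in Ly6C high cells of day 4 alone (14400 against 2350 to 3020), and fibroblast genes are high in both groups of day 4.

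Markers of plasmacytoid dendritic cells, which carry Ly6C themselves, had a similar order. Of 12 compared, 6 were at least 2-fold lower, beside 3.26% of all genes. Below 0 were 10 of the 12, with a median of -1.01. The median ran from -1.77 with the filter on any 1 group to -0.24 with the filter on all 4 groups. Spib, a transcription factor of these cells, stood at 7.01 in Ly6C high and 3.23 in Ly6C low cells on day 2, and at 9.73 and 3.34 on day 4. Siglech, their sialic acid receptor, stood at 7.03 and 3.31 on day 2 and at 9.51 and 3.99 on day 4. Ccr9, a chemokine receptor, had a change of -1.91. Spib, Siglech and Ccr9 were already at least 3.34 lower in Ly6C low cells on day 2. These genes were below 5 in both Ly6C low groups and passed the expression filter through the Ly6C high groups alone. The broader members Tcf4 and Irf7 had changes of -0.12 and 0.03.

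Fibroblast and matrix genes were high on day 4 in both subsets and split in sign. All 28 were at least 2-fold higher on day 4 in each subset, and all 28 were at least 2-fold lower in Ly6C low than in Ly6C high cells on both days. Of all genes, 10.5% in Ly6C high and 8.7% in Ly6C low cells were at least 2-fold higher on day 4. At least 2-fold lower in Ly6C low cells were 4.5% of all genes on day 2 and 5.14% on day 4. The summed level of the 28 genes was 3590 in Ly6C high and 614 in Ly6C low cells on day 2, and 103000 and 23400 on day 4. The change in subset difference was above 0 in 14 and below 0 in 14, with a median of -0.04. Over the settings the median ran from -0.56 to 0.26, so its sign was not fixed. Collagen chains such as Col5a1, at 1.07, lay above 0, and Cd34, a sialomucin of progenitor, endothelial and stromal cells, at -1.99, lay below. Igf2, a growth factor, Flnc, a filamin of muscle, Col12a1, a collagen, and Des, the desmin of muscle, were among the 15 protein-coding genes highest under the naming rule, which asks for a level of 7 or more in some group and none at 0. In Ly6C low cells of day 2 these 4 genes had log2 levels of only 0.44 to 2.99. With a pseudocount of 5, the change of Igf2 was 0.29 in place of 1.79, that of Flnc 0.39 in place of 1.44 and that of Col12a1 0.45 in place of 1.28. Col5a1, at 2.96 in Ly6C low cells of day 2, had 0.48 in place of 1.07 under that pseudocount.

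Several monocyte genes had a larger deficit in Ly6C low cells on day 4 than on day 2. Of 19 classical monocyte markers, 5 were at least 2-fold lower and 13 below 0, with a median of -0.30. Over the settings that median ran from -0.56 under quantile normalization to -0.09 with the filter on all 4 groups. Chi3l3, which encodes the chitinase-like protein Ym1, had a change of -1.49, and Hp, haptoglobin, -1.54. Both were lower on day 4 in each subset. Ccr2, the receptor that draws monocytes out of the marrow, kept its subset difference, at -0.73 on day 2 and -0.82 on day 4.

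S100a9 differed from these in its day 2 values. It stood at 7.36 in Ly6C high and 8.97 in Ly6C low cells on day 2, and at 5.04 and 3.71 on day 4. Neutrophils of day 1, a group outside the comparison, had 15.49 by the same measure. Its partner S100a8 had 7.59 and 7.87 on day 2 and 5.64 and 5.50 on day 4, a change of -0.42. Of 20 neutrophil genes, 8 passed the expression filter, of which 2 were at least 2-fold lower, S100a9 and Retnlg, and Mmp8 at 1.27 was the only one at least 2-fold higher. Retnlg, a secreted resistin-like protein, lies outside the naming rule and is given to complete that count. It stood at 5.40 in Ly6C high and 6.28 in Ly6C low cells on day 2, and at 6.42 and 3.19 on day 4, a change of -4.12. Neutrophils of day 1 had 9.47. The summed neutrophil list was 3250 and 3750 on day 2 and 2540 and 2820 on day 4 in Ly6C high and Ly6C low cells. Without Csf3r, the gene with the highest mean level, it was 2010 and 2450 on day 2 and 853 and 860 on day 4. Camp, Elane, Ly6g, Ngp, Stfa2 and Stfa3 were at 0 in at least 1 of the groups. The part of neutrophil RNA in the S100a9 value was not tested.

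Secreted factors of repair divided. Igf1, an insulin-like growth factor for muscle precursors, stood at 6.90 in Ly6C high and 9.26 in Ly6C low cells on day 2, and at 9.72 and 10.85 on day 4. Both subsets were higher on day 4 and the subset difference went from 2.36 to 1.13, a change of -1.23. Igfbp4, which binds insulin-like growth factors, went from 1.16 to -0.21. Hgf, the hepatocyte growth factor that activates satellite cells, went the other way, from -0.13 to 0.78, and Tgfb1 from -0.56 to 0.16. Of the 23 secreted factors compared, 4 were at least 2-fold lower and none at least 2-fold higher, and the median was 0.01. Of 20 genes of tissue-resident macrophages, Igf1 and Ltc4s, a leukotriene synthase at -1.37, were the 2 at least 2-fold lower, and Ltc4s is named to complete that count. Cd5l, a secreted scavenger receptor, kept the excess in Ly6C low cells, at 3.09 on day 2 and 2.36 on day 4.

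**Figure D5:**
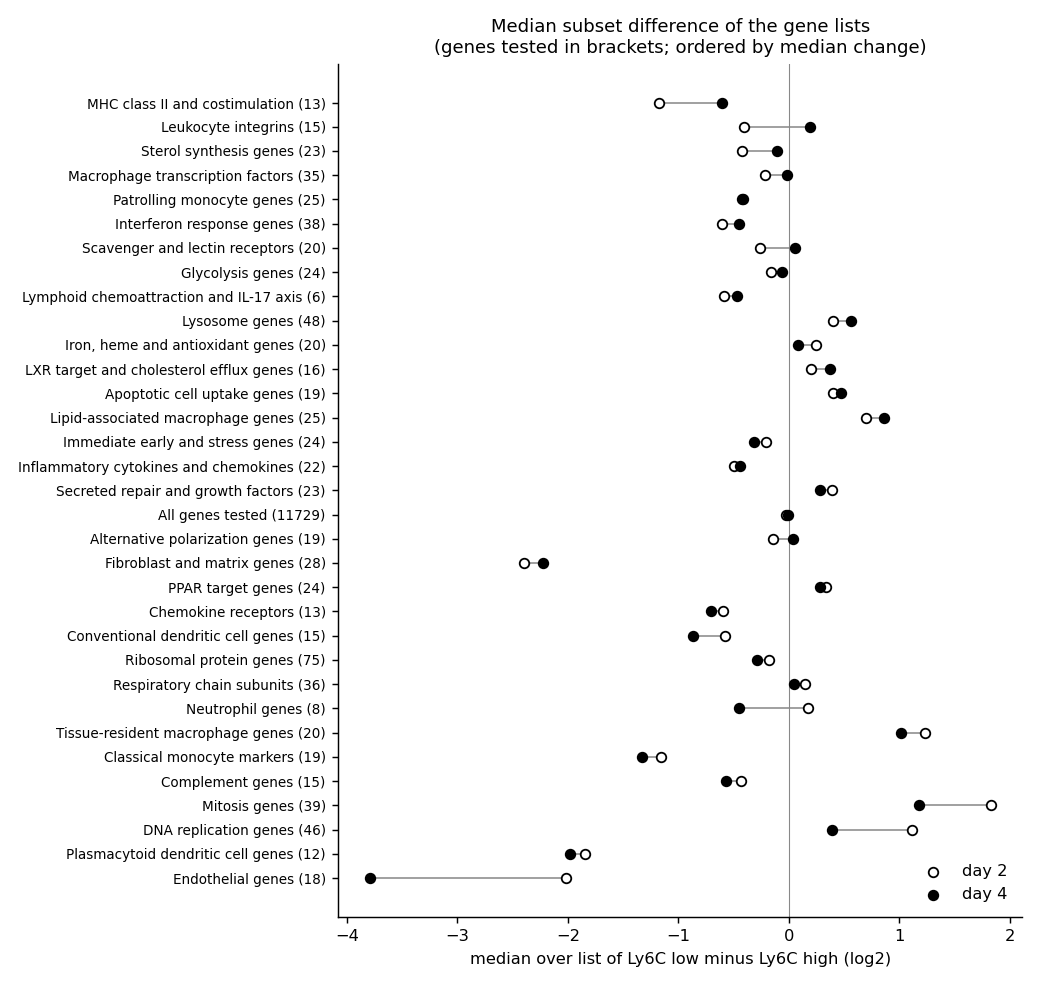
Median difference Ly6C low minus Ly6C high (log2, x axis) of each gene list on day 2 (open circles) and day 4 (filled circles), with the number of genes compared in brackets. Lists are ordered by the median change per gene, which need not equal the distance between the circles. Endothelial genes move from -2.02 to -3.80, DNA replication genes from 1.11 to 0.39, and all 11729 genes stay near 0.

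Lists of general metabolism had small medians on either side of 0. Of 36 respiratory chain subunits, 28 were below 0 with a median of -0.11 and none 2-fold apart, and of 75 ribosomal protein genes, 61 were below 0 with a median of -0.10. Of 24 glycolysis genes, 19 were above 0 with a median of 0.20, which ran from 0.04 to 0.21 over the settings. In that list 1 gene was at least 2-fold higher and 1, Slc2a3 at -1.19, at least 2-fold lower. Of 22 inflammatory cytokines and chemokines, 11 were above 0 and 11 below. Il18, an interleukin of the inflammasome pathway, was at 1.06, and Cxcl5, a chemokine for neutrophils, at -2.49. Of 25 genes of lipid-associated macrophages, only Clec7a, at 1.26, and Fabp4 were 2-fold apart, and the median was 0.04.

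Some genes in no list were high, among the 4 groups compared, in Ly6C high cells of day 4 alone. Lars2, which encodes the mitochondrial leucyl-tRNA synthetase, stood at 9.89 in Ly6C high and 9.96 in Ly6C low cells on day 2, and at 12.32 and 9.90 on day 4. Gm15564, an antisense transcript chosen after its values were seen, stood at 7.44 and 7.55 on day 2 and at 9.85 and 7.28 on day 4. In Ly6C high cells of day 1, which lie outside the comparison, Lars2 stood at 11.05 and Gm15564 at 8.67. Neutrophils of day 1, also outside it, had higher levels, 13.21 and 10.28. The subset difference of Lars2 and Gm15564 was within 0.12 of 0 on day 2 and was -2.43 and -2.57 on day 4. AC160935.1 and AC087541.1, annotated as microRNAs and also chosen after their values were seen, had the same order. AC160935.1 stood at 5.49 in Ly6C high and 5.50 in Ly6C low cells on day 2, and at 7.69 and 5.22 on day 4. AC087541.1 stood at 7.90 and 7.85 on day 2 and at 10.07 and 7.68 on day 4. In neutrophils of day 1 they stood at 4.32 and 7.62. What these genes have in common was not tested.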

How the data were processed

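RNA sequencing values of 12 samples in 4 groups were used. The submitters' processing notes name the mm10 build, TopHat2 2.0.7 and Cufflinks 2.0.2, without saying what each did. Neither the normalization nor the annotation is stated in these sources. The authors deposited log2 normalised reads with 1 column per group, read here as the mean of log2 values over the samples of a group, with a floor of 1 before the logarithm. Values of single samples were not used here, so no p-value, SD or SE is given, and totals per sample are unknown. Values of the lowest genes fell on steps of whole reads within a relative tolerance of 0.0001, from which 1 read was worth 0.412 to 0.67 normalised units. A log2 value of 5 therefore stood for 47.8 to 77.6 reads, and counting error alone gave the change in subset difference a standard error of 0.21 when all 4 columns were at 5 and 0.11 at 7.

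Differences were computed with Python 3.11.15, numpy 2.4.6 and pandas 2.3.3, checked on simulated data, with no pseudocount. Gene identifiers were looked up in GENCODE M21, which held 36308 (95.3%). The members and the 37 gene lists were chosen with earlier results of these data known. Genes named were those with no column at 0 and a level of 7 or more on the log2 scale in some column that were among the 15 protein-coding genes highest or lowest, up to 5 per list by size and up to 5 in each class of opposite 2-fold differences, plus 12 anchors. Genes chosen otherwise are said to be so or illustrate a list. Alternatives were 4 filters on low values, pseudocounts of 1 and 5, median-ratio rescaling, quantile normalization and protein-coding genes only. A few genes within this rule are left out of the text.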

Additional observations from a re-analysis of the deposited data

How the results depend on the processing

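The number of genes at least 2-fold apart depended on the filter on low values. Asking for 5 or more in any 1 column gave 891 genes, 769 of them lower. Asking for 7 or more in any 2 columns gave 150 genes, 47 higher and 103 lower, a higher share of 31.3%. Asking for 5 or more in all 4 columns gave 202 genes, 52 higher and 150 lower, and no filter gave 2826 genes, 505 higher and 2321 lower. Quantile normalization gave 174 higher genes and a higher share of 35.2%. Lower genes outnumbered higher ones under each of these settings, both pseudocounts, median-ratio rescaling and the restriction to protein-coding genes. Of the values of named genes, 662 moved by at most 1.5 times or 0.1 and 42 by more, 27 of these under quantile normalization, where Cd5l came to -0.06. Thy1 came to -0.15 with a pseudocount of 5. No paired analysis was possible because the table holds 1 mean per group, and for the same reason no sample could be left out. Genes with a column far below 5 rest on few reads in that column, and their values are the least precise. For Igf2 the standard error from counting alone was 0.55.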

Other observations

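Values from genes outside the lists, chosen after they were seen, are given without an explanation. Gm16933, a long intergenic RNA on chromosome 8, had the lowest change in subset difference of all genes compared, -4.37. It stood at 6.30 in Ly6C high and 6.46 in Ly6C low cells on day 2, and at 6.73 and 2.52 on day 4. Ly6C low cells of day 4 were the low group. Cd244, a receptor of the SLAM family, had 2.08, with 6.84 and 3.96 on day 2 and 6.22 and 5.43 on day 4. Tmem176a and Tmem176b, neighbouring genes of myeloid membrane proteins on chromosome 6, had 1.24 and 1.20. Each was higher on day 4 in both subsets, Tmem176b by 2.10 in Ly6C high and 3.30 in Ly6C low cells.

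Of the 382 genes at least 2-fold lower, 25 were in the endothelial, plasmacytoid or fibroblast lists. A further count was 16 in the replication or mitosis lists, and 317 were in no list. For the 90 genes at least 2-fold higher, the corresponding counts were 2, 0 and 74. Genes in any list made up 17.0% of the lower and 17.8% of the higher genes. The share of all compared genes in these lists is not given here. These counts therefore do not show whether list genes were more frequent than among all genes.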
